A study of Homo sapiens with 2 samples.

Results

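Collagen genes encode the chains of the most abundant proteins of the extracellular matrix. They were taken here as all protein-coding genes whose GENCODE version 44 symbol is COL, a number, A and a number, which gave 44 genes of the 19586 protein-coding genes with a row in the files. All 44 had a row. The study sequenced the RNA bound to chromatin, much of it nascent, in SH-SY5Y cells (SHSY-5Y in the labels), a human neuroblastoma line of sympathetic type with no genetic modification, as 2 replicates of 1 condition. The libraries held 4155210 and 3425309 counts of read pairs in exons of a single gene on the annotated strand, 18.5% and 17.5% of the uniquely mapped read pairs. No source states that the replicates were separate cultures, so their spread may be technical. The design holds no second condition, and the values are levels in this line with no test of a change.

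A collagen molecule is made of 3 chains that wind into a rope-like helix, and each chain repeats a triplet of residues that opens with glycine, written Gly-X-Y. Fibrillar collagens form the banded fibrils of connective tissue, type IV collagen forms the sheet of basement membranes, FACIT collagens sit on the surface of fibrils, and transmembrane collagens span the cell membrane. Type VI collagen builds beaded filaments, and further small families form hexagonal networks, anchoring fibrils of the skin or the basement membrane zone. In the sympathetic nervous system, collagens are best known as products of the stroma and of Schwann cells, and neuroblastoma cells can also make them.

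The repeat is visible in the coding sequences. The first 7 triplets of the longest unbroken Gly-X-Y run are shown for 4 of the genes that carry most of the results below. They are read 5′ to 3′ from the MANE Select transcript in GENCODE, with the opening glycine codon of each triplet in capitals.
COL3A1: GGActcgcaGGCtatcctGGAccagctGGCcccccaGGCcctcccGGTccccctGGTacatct
COL4A1: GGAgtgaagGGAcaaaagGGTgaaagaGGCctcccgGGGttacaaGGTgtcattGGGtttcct
COL4A2: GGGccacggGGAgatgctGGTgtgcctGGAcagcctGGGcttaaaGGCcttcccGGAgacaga
COL11A1: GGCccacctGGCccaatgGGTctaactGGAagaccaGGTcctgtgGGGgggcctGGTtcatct
The classes differed in how long this run was. In the fibrillar genes it held 337 to 343 triplets, except for 216 in COL24A1 and 217 in COL27A1. In COL3A1 it held 343 triplets, in COL4A2 66 and in COL4A1 40, because the helix of type IV collagen is broken by many short interruptions. The fibrillar genes had 51 to 67 coding exons in all, of which 21 to 33 had a length of exactly 54 bases. COL8A1, COL8A2 and COL10A1 stood apart with 2 coding exons each. Across the 44 genes the length of the run and the level per kb of exon had a Spearman correlation of 0.21, a description over genes of the same libraries.

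A gene was taken as detected when the mean of its 2 counts on the annotated strand was 10 or more. This held for 21 of the 44 collagen genes (47.7%), against 59.4% of all protein-coding genes. No count on the annotated strand in either library was found for 12 collagen genes (27.3%), against 24.9% of all protein-coding genes. The other 11 had mean counts above 0 and under 10. All collagen genes together held 7641 and 5139 counts in replicates 1 and 2, which is 0.184% and 0.150% of the counts in genes. The median level of a collagen gene was 1.34 counts per 1000000 counts in genes (CPM), against 8.61 CPM over all protein-coding genes. Per kb of exon the medians were 0.128 CPM per kb for collagen genes and 1.90 CPM per kb for all protein-coding genes. The counts were very unevenly spread. COL4A2 and COL4A1 together held 59.7% of the collagen counts in replicate 1 and 56.1% in replicate 2, and the fibrillar genes, led by COL3A1, held 23.8% and 29.1%. In a bulk library, fewer cells with a transcript and less transcript per cell cannot be told apart.

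**Figure D1:**
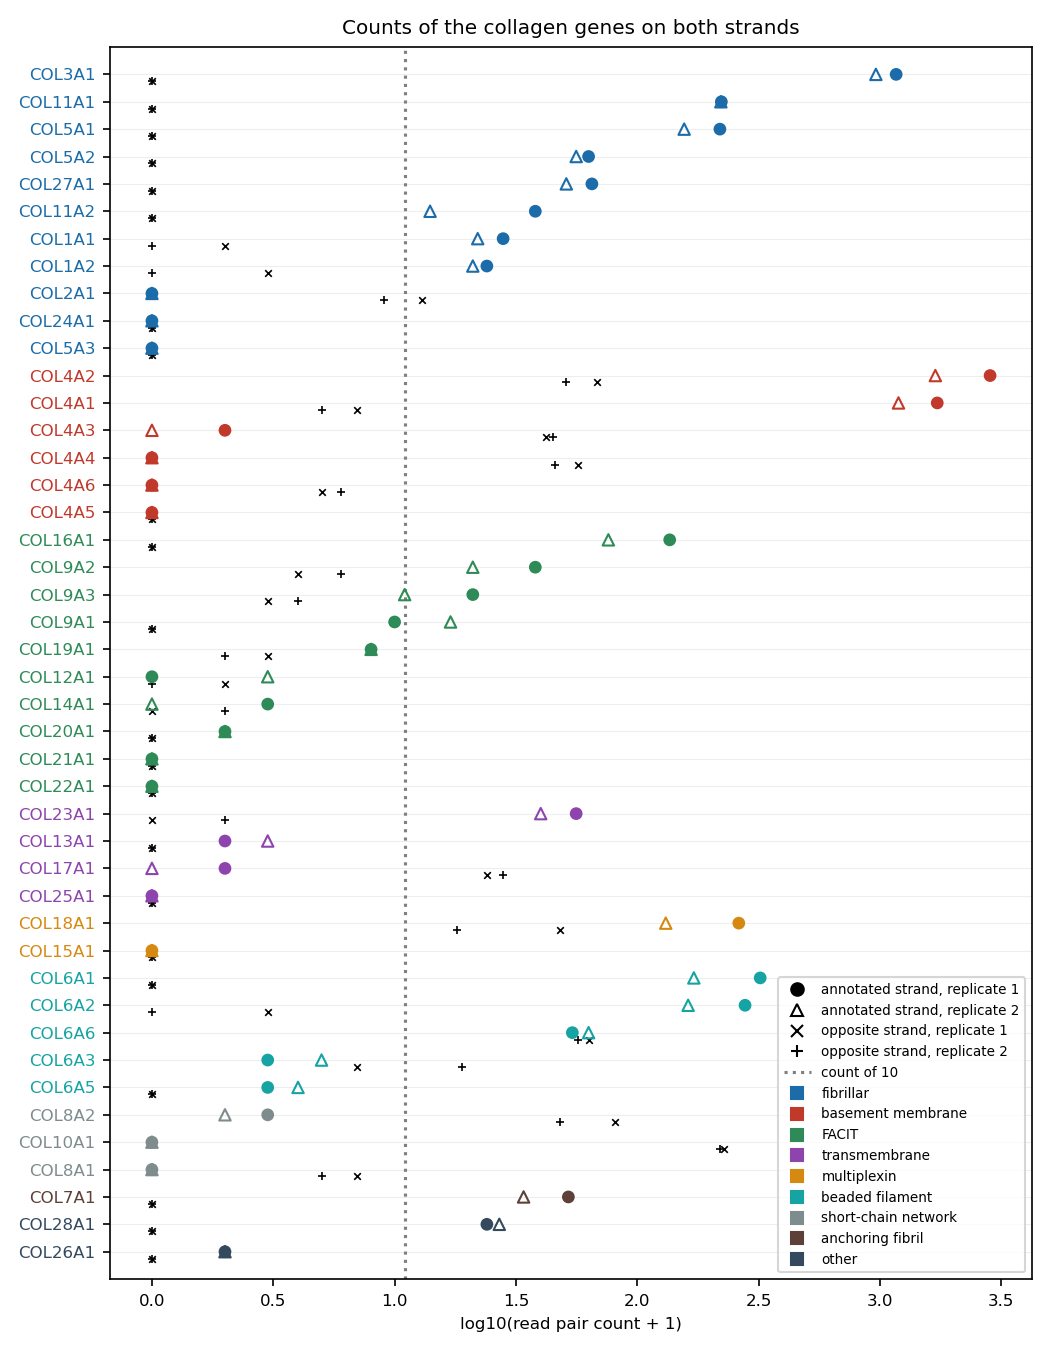
Read pair counts of all 44 collagen genes as log10(count + 1), ordered by class and level. Filled circles and open triangles are replicates 1 and 2 on the annotated strand, crosses and plus signs are replicates 1 and 2 on the opposite strand, and the dotted line is a count of 10. COL4A2, COL4A1 and COL3A1 lie far to the right, and COL10A1, COL4A4 and COL4A3 have their counts on the opposite strand.

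The fibrillar class was the class with the most detected genes. Of its 11 genes, 8 were detected and 3 had no count on the annotated strand, and the class median was 0.862 CPM per kb of exon. COL3A1, which encodes the chain of type III collagen of vessels and distensible tissues, had 1165 and 961 counts in the 2 libraries. Its level of 280 ± 0.133 CPM (SD, n = 2) corresponds to 41.5 ± 0.0196 CPM per kb (SD, n = 2), rank 452 of 19586 protein-coding genes per kb. COL3A1 lies on chromosome 2 from 188974373 to 189012746 (GRCh38). Both libraries gave nearly the same level, but 2 values are too few to rank genes by reproducibility.

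COL11A1 followed in the fibrillar class, with 221 and 220 counts and 6.46 ± 0.859 CPM per kb (SD, n = 2). It encodes a chain of type XI collagen, which nucleates the fibrils of cartilage. COL5A1, a chain of type V collagen that starts the fibrils of other tissues, had 218 and 155 counts and 4.38 ± 0.457 CPM per kb (SD, n = 2). Its partner COL5A2 had 62 and 55 counts and 2.12 ± 0.110 CPM per kb (SD, n = 2). The level of COL5A1 was 2.31 times that of COL5A2 in replicate 1 and 1.85 times in replicate 2, and their values did not overlap. Type V collagen is most often built of 2 chains from COL5A1 and 1 chain from COL5A2.

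The genes of type I collagen, the main collagen of bone, skin and tendon, were low. COL1A1 had 27 and 21 counts and COL1A2 had 23 and 20 counts, which gave 0.701 ± 0.0288 and 0.526 ± 0.0199 CPM per kb (SD, n = 2). COL3A1 thus stood 57.5 and 61.0 times above COL1A1 per kb in replicates 1 and 2, and 81.0 and 76.9 times above COL1A2. For COL1A2 the ratio of the means was 78.9 per kb of exon and 45.6 with the length of the MANE Select transcript. COL1A1 was 1.41 and 1.26 times COL1A2 per kb of exon, but their order turned with the MANE Select length (ratio 0.952). COL27A1 had 64 and 50 counts and COL11A2 had 37 and 13, the widest spread between the libraries among the detected fibrillar genes. COL11A1 was therefore 4.84 times COL11A2 per kb in replicate 1 and 13.7 times in replicate 2.
COL2A1, the main collagen gene of cartilage and the usual partner of type XI collagen, had no count on the annotated strand, and neither had COL5A3 and COL24A1. A count of 0 in both allows a level of up to 0.396 CPM (3 counts of 7580519 over both libraries, counting error only).

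The basement membrane class held the 2 genes with the most counts, but its other 4 genes were almost silent on the annotated strand. Type IV collagen is built from 6 genes that lie as 3 head-to-head pairs, and the common molecule holds 2 chains from COL4A1 and 1 chain from COL4A2. COL4A2 had 2842 and 1690 counts, or 589 ± 135 CPM (SD, n = 2), and COL4A1 had 1721 and 1191, or 381 ± 47.0 CPM (SD, n = 2). They lie on chromosome 13, COL4A1 from 110148963 to 110307157 on the minus strand and COL4A2 from 110305812 to 110513209 on the plus strand, so that their annotated spans overlap at their starts. Per kb of exon COL4A2 stood at 35.5 and 25.6 and COL4A1 at 28.2 and 23.7 CPM per kb in replicates 1 and 2, and these values overlapped. Within each library COL4A2 was the higher gene, by 1.26 and 1.08 times. With the length of the MANE Select transcript in place of the exons the ratio of the means was 1.57 in place of 1.18, since the exons of COL4A2 cover 19271 bases over all its transcripts and those of COL4A1 14662.

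The pair COL4A3 and COL4A4 on chromosome 2, whose chains form the basement membrane of the kidney glomerulus together with that of COL4A5, had 1 and 0 counts and no count on the annotated strand. The pair COL4A5 and COL4A6 on the X chromosome had no count on the annotated strand in either library. Of the 3 pairs, the levels of both genes were thus alike within each pair: both high, both near 0 and both at 0.

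The start regions of the 3 pairs are shown because each serves both genes of a pair. Coordinates are GRCh38, the letters are the plus strand from the RefSeq promoter table, 5′ to 3′, and capitals mark a CCAAT box (CCAAT) or a GC box (GGGCGG) on either strand. The first sequence is the whole stretch of 126 bases between the RefSeq starts of COL4A1 and COL4A2 (chr13:110307158-110307283). The other sequences are the 250 bases before the starts of COL4A3 (chr2:227164374-227164623) and COL4A5 (chrX:108439588-108439837), out of 418 and 379 bases between the starts of those pairs.
COL4A1 and COL4A2: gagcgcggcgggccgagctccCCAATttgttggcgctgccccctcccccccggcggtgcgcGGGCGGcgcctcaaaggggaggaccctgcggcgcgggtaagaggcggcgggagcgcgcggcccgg
COL4A3: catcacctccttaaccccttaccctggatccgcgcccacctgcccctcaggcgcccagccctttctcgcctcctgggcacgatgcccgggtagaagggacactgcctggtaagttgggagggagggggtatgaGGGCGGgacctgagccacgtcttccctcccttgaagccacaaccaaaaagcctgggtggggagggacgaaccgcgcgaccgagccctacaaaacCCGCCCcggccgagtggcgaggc
COL4A5: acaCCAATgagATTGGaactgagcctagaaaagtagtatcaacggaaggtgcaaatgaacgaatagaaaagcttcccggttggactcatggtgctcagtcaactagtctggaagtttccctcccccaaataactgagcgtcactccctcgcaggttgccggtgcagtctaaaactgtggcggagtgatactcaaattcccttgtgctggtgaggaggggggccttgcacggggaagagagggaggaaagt
The stretch of COL4A1 and COL4A2 held 1 CCAAT box and 1 GC box and had a GC content of 80.2%, that of COL4A3 held 2 GC boxes, and that of COL4A5 held 2 CCAAT boxes. No TATA box (TATAAA) was in these 3 windows. RefSeq promoters of 300 bases were matched to 32 of the 44 collagen genes. A GC box on either strand was in 18 of the 32 (56.3%), against 44.6% of all 27305 promoters, a CCAAT box in 10 (31.3% against 35.7%) and a TATA box in 5 (15.6%, against 3264 of all promoters). COL1A1, COL1A2, COL2A1, COL3A1, COL5A2, COL6A1, COL6A5, COL8A1, COL9A3, COL14A1, COL20A1 and COL22A1 were not matched.

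Type VI collagen is normally built of 1 chain each from COL6A1, COL6A2 and COL6A3, and only the first 2 of these genes had chromatin RNA at a clear level. COL6A1 had 320 and 170 counts and COL6A2 had 277 and 161, which gave 11.4 ± 3.50 and 10.7 ± 2.61 CPM per kb (SD, n = 2). These neighbours on chromosome 21, transcribed in the same direction, were 1.11 and 1.02 times apart in the 2 libraries, less than the spread between the libraries. COL6A3 had only 2 and 4 counts over 21516 bases of exon, or 0.0383 CPM per kb, far below COL6A1 and COL6A2 in both libraries. The related COL6A6, whose chain can stand in for that of COL6A3, had 53 and 62 counts and 1.75 ± 0.428 CPM per kb (SD, n = 2), above COL6A3 in both libraries, and COL6A5 had 2 and 3 counts.

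Of the 10 FACIT genes, 4 were detected, and the class median was 0.0967 CPM per kb. COL16A1 was the highest with 135 and 75 counts and 2.94 ± 0.810 CPM per kb (SD, n = 2). The 3 genes of type IX collagen, which decorates cartilage fibrils and needs all 3 chains, were low but detected, with 37 and 20 counts for COL9A2, 20 and 10 for COL9A3 and 9 and 16 for COL9A1. COL9A1 was lower than COL9A2 per kb in both libraries, by 10.1 times in replicate 1 and 3.06 times in replicate 2. The ratio of the means was 5.28 per kb of exon and 2.80 with the MANE Select length. COL19A1, next to COL9A1 on chromosome 6, had 7 counts in each library. COL14A1 and COL12A1, collagens of dense connective tissue, had 2 and 0 and 0 and 2 counts, COL20A1 had 1 in each library, and COL21A1 and COL22A1 had none.

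Of the 4 transmembrane genes only COL23A1 reached a mean count of 10, with 55 and 39 counts and 2.82 ± 0.300 CPM per kb (SD, n = 2). COL13A1, a collagen of the neuromuscular junction, had 1 and 2 counts, COL17A1, a part of the hemidesmosomes of epithelia, had 1 and 0, and COL25A1, which takes part in the innervation of muscle, had none. Among the remaining families, COL18A1, whose C-terminal fragment is endostatin, had 261 and 130 counts and 5.95 ± 2.08 CPM per kb (SD, n = 2), while its relative COL15A1 had none. COL7A1, the gene of the anchoring fibrils, had 51 and 33 counts, COL28A1 had 23 and 26 and COL26A1 had 1 in each library. The short-chain network genes COL8A1 and COL10A1 had no count on the annotated strand and COL8A2 had 2 and 1.

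**Figure D2:**
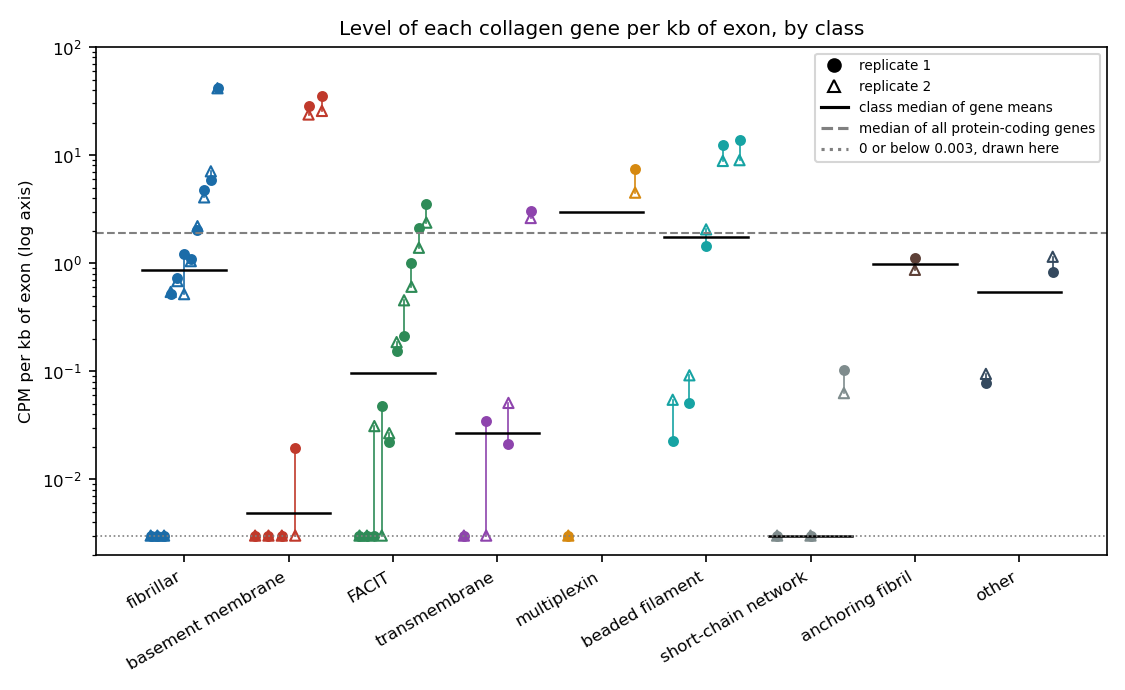
Level of each collagen gene in CPM per kb of exon on a log axis, by class. Filled circles are replicate 1, open triangles replicate 2, lines connect both values of a gene, black bars are class medians of the gene means, the dashed line is the median of all protein-coding genes, and values of 0 are drawn on the dotted line at the foot of the axis. COL3A1, COL4A1 and COL4A2 lie above 20 CPM per kb in both libraries, and most classes span more than 1 order of magnitude.

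The order of the leading genes depended on the length they were divided by. Per kb of exon it was COL3A1, COL4A2, COL4A1, COL6A1, COL6A2 and COL11A1. COL4A1 and COL4A2 overlapped, as did COL6A1 and COL6A2. The values of COL3A1 lay above those of COL4A1 in both libraries, 1.47 and 1.75 times higher. With the length of the MANE Select transcript, COL4A2 led with 91.3 CPM per kb, before COL4A1 with 58.2 and COL3A1 with 51.1. A read pair is counted for a gene if it touches an exon, so that in unspliced RNA short exons also gather pairs that begin in an intron. With every exon extended by 75 bases, the length of a read, on each side, COL4A2 had 22.1 CPM per kb, COL3A1 20.5 and COL4A1 17.2. COL6A1 stayed below each of these 3 genes on every scale used.

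Some collagen genes carried RNA of the opposite strand. Over all collagen genes, 92.2% and 90.3% of the counts of both strand columns lay on the annotated strand in replicates 1 and 2. With the counts of both libraries summed, the share was 91.4%, against 93.3% over all protein-coding genes. Among detected genes, COL3A1, COL5A1, COL5A2, COL11A1, COL11A2, COL27A1, COL6A1, COL7A1, COL9A1, COL16A1 and COL28A1 had no opposite-strand count in either library. For COL3A1 that was 0 of 2126 counts, so that at least 99.8% lay on the annotated strand (exact binomial 95% interval, counting error only). In 8 of the 28 collagen genes with at least 20 counts over both strands and libraries (28.6%), the opposite strand held more counts than the annotated strand, against 10.7% of all protein-coding genes with as many counts.

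COL10A1, the collagen of hypertrophic cartilage, was the extreme case. It had 227 and 218 counts on the opposite strand and none on its own, which bounds its share of annotated-strand counts at 0.826% (upper limit of the exact binomial 95% interval). COL10A1 lies inside NT5DC1, which runs on the opposite strand and had 110 and 124 counts. COL8A2 had 80 and 47 counts on the opposite strand against 2 and 1 on its own. COL17A1, with 23 and 27 against 1 and 0, and COL2A1, with 12 and 8 against none, showed the same pattern.
COL4A4 had 56 and 45 counts on the opposite strand and COL4A3 had 41 and 44, although the annotated strands of this pair were at or near 0. COL4A6 had 4 and 5 and COL8A1 had 6 and 4, below the limit of 20. In COL6A6 the strands were nearly equal, with 62 and 56 counts on the opposite and 53 and 62 on the annotated strand (49.4% annotated, exact binomial 95% interval 42.8% to 56.0%). COL6A3 had 6 and 18 counts on the opposite strand against 2 and 4.

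The positions of neighbouring genes were set beside these counts. A detected gene of the opposite strand overlapped the collagen gene or lay within 10 kb of its 3′ end in 7 of the 8 genes with more RNA on the opposite strand and in 5 of the other 20. Over all protein-coding genes with as many counts, the shares were 88.5% and 37.1%, so the collagen genes resembled other coding genes in this respect. The 10 kb window was chosen after the values were seen. In 5 of the 7 the neighbour faced the collagen gene tail to tail. ADPRS (mean count 84.5) ends 1307 bases from the 3′ end of COL8A2, SLK (mean count 414) 2053 bases from that of COL17A1, TMEM106C (mean count 247) 4089 bases from that of COL2A1, RHBDD1 (mean count 184.5) 3499 bases from that of COL4A4 and PIK3R4 (mean count 487.5) 1890 bases from that of COL6A6. COL4A3 overlaps the lncRNA gene MFF-DT (mean count 19.5), which shares 838 bases of exon with it on the opposite strand. COL6A3 was the exception, without such a gene. Whether RNA that runs on from these genes gave the counts was not tested.

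Among the high genes, COL18A1 had 47 and 17 counts on the opposite strand. Of its exon bases, 18.5% are also exon of SLC19A1 on the opposite strand (mean count 100.5). COL4A2 had 67 and 50, and 97.5% of the counts of both its strands lay on its own (exact binomial 95% interval 97.0% to 97.9%).

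**Figure D3:**
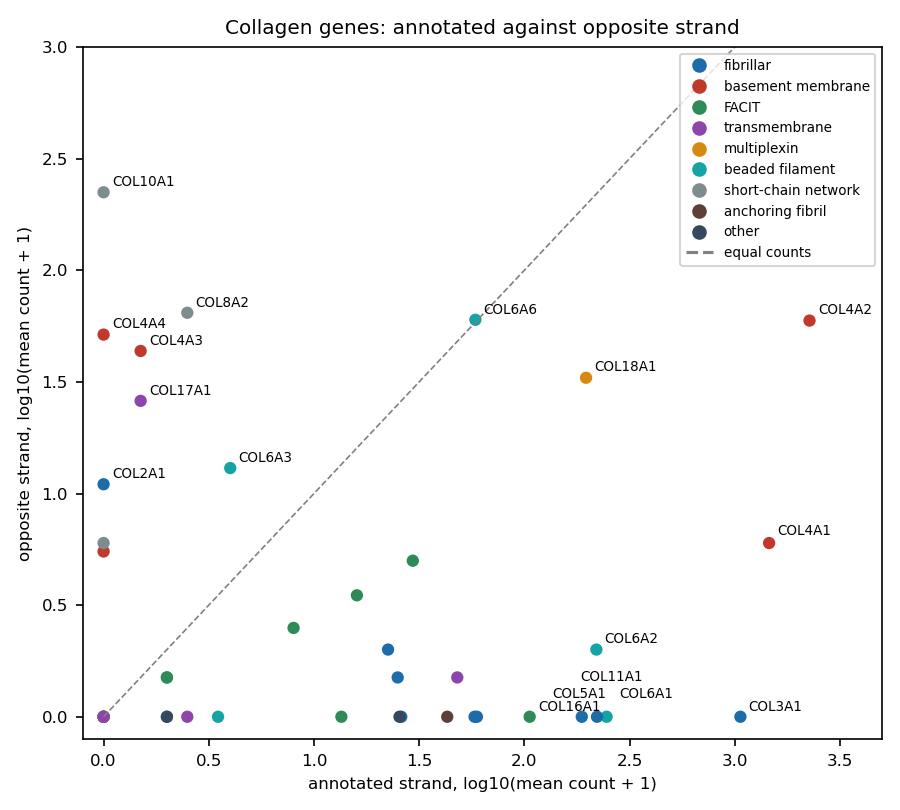
Mean count of the 2 libraries on the opposite strand (vertical) against the annotated strand (horizontal) for the 44 collagen genes, both as log10(mean count + 1), coloured by class. The dashed line marks equal counts, and genes above it have more RNA on the opposite strand. COL10A1 lies highest at 222.5 opposite and 0 annotated counts, COL6A6 lies on the line, and COL3A1 lies on the axis with no opposite count.

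The 2 libraries differed in collagen genes, and the difference went with base composition. Of the 21 detected genes, 14 had a higher CPM in replicate 1 (66.7%), against 54.3% of all detected protein-coding genes. The log2 ratio of replicate 1 over replicate 2 had a median of 0.22 and ran from -1.11 in COL9A1 to 1.23 in COL11A2. All 13 detected genes whose transcript had a GC content of at least 60% were higher in replicate 1, with a median log2 ratio of 0.50, and of the 8 others only COL4A1 was (median -0.19). COL6A1 (GC 63.5%), COL6A2 (66.4%) and COL18A1 (67.2%) had log2 ratios of 0.63, 0.50 and 0.73, while COL6A6 (46.5%) and COL11A1 (47.6%) had -0.50 and -0.27. Over all detected protein-coding genes, 1520 of the 1724 GC-rich genes and 4798 of the 9913 others were higher in replicate 1. The Spearman correlation of the ratio with GC content was 0.87 over the 21 collagen genes and 0.49 over the 11637 coding genes, both across genes that share the libraries. The GC limit was chosen after these values were seen, and the part of base composition in the difference was not tested.

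**Figure D4:**
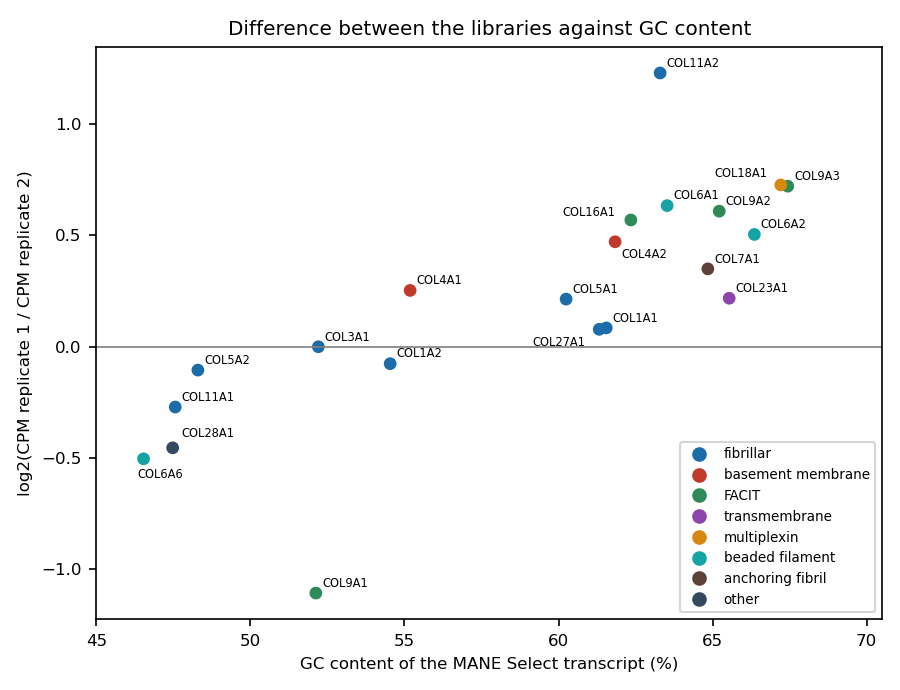
Log2 ratio of CPM in replicate 1 over replicate 2 (vertical) against the GC content of the MANE Select transcript in percent (horizontal) for the 21 detected collagen genes, coloured by class. Points above 0 are higher in replicate 1. All genes at or above 60% GC lie above 0, and COL9A1 is lowest at -1.11.

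Genes that fold, trim, bind and break down collagen were measured beside the collagen genes. Chains are hydroxylated and folded in the endoplasmic reticulum, and of 17 such genes 14 were detected. The highest per kb were FKBP10, a prolyl isomerase, MIA3, which loads the bulky procollagen into transport carriers, and P4HA1, a catalytic subunit of prolyl 4-hydroxylase, with 36.8 ± 3.68, 24.5 ± 0.269 and 23.9 ± 2.05 CPM per kb (SD, n = 2). SERPINH1, the collagen chaperone HSP47, had 10.6 ± 0.371 CPM per kb (SD, n = 2). The lysyl hydroxylase gene PLOD2 had no count on its strand, while its relative PLOD1 had 9.28 ± 1.72 CPM per kb (SD, n = 2).
Of 13 genes of procollagen trimming and cross-linking, 9 were detected. PCOLCE, which enhances the removal of the C-propeptide of fibrillar procollagens, had 1391 and 1000 counts and 93.7 ± 9.05 CPM per kb (SD, n = 2), above every collagen gene on this scale. BMP1, the C-propeptidase itself, had 9.97 ± 0.0155 and the lysyl oxidase relative LOXL3 9.26 ± 0.147 CPM per kb (SD, n = 2). LOX had 7 and 11 counts on its annotated strand, and TLL1 had none. On the opposite strand LOX had 92 and 62 counts, and LOXL3 had 133 and 128 against 172 and 145 on its own.

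Among 10 receptor genes, 7 were detected. DDR2, a receptor kinase for fibrillar collagen, led with 1892 and 1696 counts and 42.8 ± 2.54 CPM per kb (SD, n = 2). MRC2, which takes up collagen, had 28.5 ± 9.31 and the integrin gene ITGA1, whose product binds type IV collagen, 19.0 ± 1.10 CPM per kb (SD, n = 2). The leukocyte receptor LAIR1 and the platelet receptor GP6 had no count. Of 7 genes of collagen breakdown 3 were detected, MMP2 with 24.3 ± 1.57, CTSK with 2.07 ± 0.879 and MMP14 with 0.591 ± 0.121 CPM per kb (SD, n = 2), and MMP1, MMP8, MMP9 and MMP13 had no count on the annotated strand, while MMP9 had 13 on the opposite strand in each library.

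Marker genes of the cell line and of other collagen-making cells were read in the same libraries, on the annotated strand. All 8 sympathetic neuroblast genes were detected, with HAND2, ISL1 and STMN2 at 231, 182 and 114 CPM per kb. The Schwann cell genes SOX10 and S100B were at 0 in both libraries. None of the 4 chondrocyte genes was detected (summed level 4.09 and 1.46 CPM in replicates 1 and 2, ACAN and COMP at 0), nor any of the 4 endothelial genes (0.481 and 0.292 CPM, PECAM1 and CDH5 at 0) and the 4 leukocyte genes (0.241 and 0.292 CPM, PTPRC, CD3E and CD68 at 0). The highest of these were SOX9 with 12 and 4 and MATN1 with 5 and 1 counts, and ERBB3, VWF, KDR and LYZ had at most 2 in a library. Of the 6 fibroblast genes, 5 were detected, with summed levels of 858 and 798 CPM. PDGFRA, PDGFRB and THY1 were the highest at 57.2, 30.4 and 5.86 CPM per kb, and LUM, DCN and FAP had mean counts of 26, 61.5 and 7. The part of fibroblast-type transcription in the level of COL3A1 and of the other collagen genes was not tested.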

How the data were processed

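Both replicates form 1 group. The authors extracted molecular identifiers with UMI-tools, removed spike-in and rRNA reads with Bowtie 1, mapped with STAR, removed duplicates and mapped again. The deposited files hold the raw counts of read pairs per gene from STAR, in an unstranded column and 1 column per strand. The build in the processing notes is hg38, and tool versions and gene annotation were not stated in those sources. Column 4 was taken as the annotated strand because it held 88.5% and 88.7% of the counts of both strand columns. Of 60554 genes, 56558 were found in GENCODE version 44. Rows for pairs in no gene, several genes or several places were left out. The counts used were 18.5% and 17.5% of unique pairs, those in exons of a single gene on the annotated strand.

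CPM was taken over counts in genes and divided by the kb of all exons of a gene. No test and no count model was run, since there is 1 condition, and the arithmetic was tested on simulated data. Both libraries were kept as separate replicates, as their counts differed beyond counting error (chi-square 2.92 per degree of freedom). Every collagen gene is named, and of each other list the 3 highest genes per kb and those without a count. Some items and the results that need them are not reported here. Members and lists were chosen with earlier results of these data known. PLOD1, SERPINH1, LOX, LUM, DCN and FAP were named after their values were seen. Alternatives were other strand columns, single replicates, thresholds, length rules and library totals. Python 3.11.15, numpy 2.4.6, pandas 2.3.3 and scipy 1.17.1 were used.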

Additional observations from a re-analysis of the deposited data

Results flagged for a closer look

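Genes with a collagen name that are not protein-coding were outside the comparisons, and 2 of them had more than 3 counts on their annotated strand over both libraries. The lncRNA COL6A2-DT, which starts next to COL6A2 on the other strand, had a mean count of 4 (4 and 4 counts). COL6A4P2, the unitary pseudogene of a further type VI chain, had a mean count of 2.5 (3 and 2 counts). The antisense genes COL4A2-AS1 and COL4A2-AS2 had no count on their own strand, and 132 and 79 and 90 and 49 counts on the strand of COL4A2.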

How the results depend on the processing

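The 21 detected collagen genes became 28 in the unstranded column, 10 on the opposite strand, 30 at a mean count of at least 1 and 9 at a mean count of at least 100, and were 20 to 21 with either replicate left out. The median of 1.34 CPM became 6.23 in the unstranded column, 0.462 on the opposite strand, 6.46 without members at 0 and 0.241 when read pairs outside single genes entered the library total. It ran from 1.08 to 1.61 over single replicates. The median of 0.128 CPM per kb became 0.836 in the unstranded column, 0.0245 on the opposite strand, 0.923 without members at 0, 0.172 with the MANE Select length and 0.08605 with extended exons, an alternative chosen after seeing the data, and ran from 0.128 to 0.140 over single replicates. COL4A2 held 35.0% of collagen counts (32.9% to 37.2% over single replicates). The annotated strand held 91.2% of collagen counts (90.3% to 92.2% over single replicates), 88.4% without genes with opposite-strand exon overlap and 74.5% without COL4A1, COL4A2 and COL3A1, also added after seeing the data. Of 29 alternative values, 15 moved by less than the spread between the replicates or, for numbers of detected genes, by no more than 1.5 times. Some of these 15 were fixed in advance, as leaving out 1 replicate moves a mean of 2 by less than their SD. The shifts of members at 0 and of the library total follow from their construction, and the cause of the others was not tested. Depth limits the low genes, since 3 counts are 0.722 and 0.876 CPM in the 2 libraries.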
